A study of Mus musculus with 24 samples.

Results

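The genes described here carry amino acids, and related neurotransmitters and osmolytes, across membranes. They were chosen by symbol: every gene of the FPKM files from the solute carrier families Slc1, Slc3, Slc6, Slc7, Slc36, Slc38 and Slc43, except Slc7a2 and Slc7a11. The rule found 62 genes among the 18740 listed in either set of files. The M1 files held 59 of 18063 genes, the M2 files held 59 of 17786, and 56 were in both. Of the 62 genes, 2 (Slc6a19os and Slc7a6os) match the pattern but are named for lying opposite a transporter gene, and are not transporters by name.

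The libraries were RNA-seq of bone marrow-derived macrophages (BMDMs) from C57BL/6 mice aged 10 weeks (male according to the methods), either wild type (WT) or DRD5-/-, which lack the dopamine receptor D5 in the whole body after CRISPR-Cas9 editing. M1 cells received LPS at 100 ng/ml with IFN-γ at 50 ng/ml, and M2 cells received IL-4 and IL-13 at 10 ng/ml each, for 12 h. Each genotype was left untreated or given dopamine (DA, 20 µM according to a figure legend of the study). That makes 8 groups of 3 libraries, 24 in all. FPKM summed to 476187 to 494459 per M1 library and 482310 to 503799 per M2 library. Each stimulus has 4 groups, with and without DA for either genotype. A sample label gives the colon as the origin of the cells, whereas the tissue label gives bone and the methods give tibia and femur marrow. What a replicate number stands for, a separate mouse or another dish of the same cells, is not given in the sources, so the p-values measure the spread between these libraries, which may be technical.

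Amino acid carriers of the Slc7 light chain group work as a pair with a heavy chain, Slc3a2 (4F2hc), which brings them to the plasma membrane. Slc7a5 (LAT1), Slc7a8 (LAT2), Slc7a6 and Slc7a7 exchange large neutral or cationic amino acids, Slc1a5 and Slc1a4 exchange small neutral ones, and the Slc38 family takes up glutamine and its relatives with sodium. In macrophages, arginine uptake feeds nitric oxide synthase, and the Slc6 family includes the transporters that clear dopamine, noradrenaline and serotonin as well as those for taurine, betaine, GABA and creatine.

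Markers were read first. All 8 macrophage markers reached 1 FPKM in both stimuli, with Lyz2 the most abundant at a mean of 4940 FPKM over the M1 libraries and 6400 over the M2 libraries. Nos2, which makes nitric oxide in M1 cells, averaged 1890 FPKM over the M1 libraries, and Mrc1, a mannose receptor of M2 cells, averaged 345 over the M2 libraries. The 6 M2 markers summed to 556, 555 and 571 FPKM in untreated WT, 1615, 1639 and 1604 in DA-treated WT, 459, 460.2 and 464 in untreated DRD5-/- and 516, 512 and 502 in DA-treated DRD5-/- libraries of M2 cells. The sum was higher in all 3 DA-treated WT libraries than in the other 9. The deleted gene, Drd5, was listed in M2 only, at 0.06 FPKM in 1 untreated WT library, 0.03 in 1 DA-treated WT library and 0 in the other 10. These values cannot check the DRD5-/- label, because 4 of 6 WT libraries were listed at 0 too.

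Transcripts of other cell types moved with genotype in M1. The 8 neutrophil markers, led by S100a8, summed to 44.7, 54.8 and 56.6 FPKM in untreated WT, 83.1, 66.1 and 63.7 in DA-treated WT, 14.7, 18.2 and 15.9 in untreated DRD5-/- and 18.7, 17.3 and 20.1 in DA-treated DRD5-/- libraries. All 6 WT libraries were above all 6 DRD5-/- libraries. Elane was at 0 in all 12, while Ngp averaged 8.5 FPKM in untreated WT and 0.10 in untreated DRD5-/- cells. A list of 14 heart muscle genes, written after the values were seen, behaved alike, led by Tnnc1, and summed to 18, 23.1 and 23.8 FPKM in untreated WT, 27.5, 23.1 and 18.2 in DA-treated WT, 5.71, 6.1 and 5.07 in untreated DRD5-/- and 5.03, 5.24 and 6.13 in DA-treated DRD5-/- libraries. Myl2, Myl3, Mb, Myh6 and Myoz2 were at 0 in all 6 DRD5-/- libraries and above 0 in all 6 WT libraries. The 5 listed lung genes of another added list, led by Scgb1a1 (0 in all 6 DRD5-/- libraries), summed to 3.33, 2.45 and 2.49 FPKM in untreated WT, 3.34, 2.12 and 2.18 in DA-treated WT, 0.21, 0.29 and 0.66 in untreated DRD5-/- and 0.26, 0.39 and 0.23 in DA-treated DRD5-/- libraries. In M2 the neutrophil sum stayed at or below 1.51 FPKM and the heart muscle sum at or below 1.35 in every library. The 2 lung genes listed in M2, led by Sftpb, summed to 2.62, 2.99 and 2.32 FPKM in untreated WT, 1.77, 2.24 and 2.18 in DA-treated WT, 4.7, 3.54 and 4.8 in untreated DRD5-/- and 3.92, 3.86 and 4.39 in DA-treated DRD5-/- libraries. Sftpb averaged less in the WT than in the DRD5-/- groups in M1 too, at 0.14, 0.26, 0.387 and 0.293 FPKM in untreated and DA-treated WT and untreated and DA-treated DRD5-/- cells, so the M1 sum does not describe it. The part of these transcripts in the M1 comparisons between genotypes was not tested. In bulk RNA, fewer cells of a type and less RNA per cell cannot be told apart.

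Marker lists also moved with DA in WT cells of both stimuli. In M1 the 8 macrophage markers summed to 7599.9, 7520.3 and 7482 FPKM in untreated WT and 8169.5, 8245 and 8231 in DA-treated WT libraries. The sum was higher in the 3 DA-treated WT libraries than in the other 9 M1 libraries. Of the M1 markers, Il12b averaged 20.1 FPKM in untreated and 4.51 in DA-treated WT cells of M1, and Gbp2 1880 and 2220. Not all lists are given for M1 cells, and 1 left out there moved more than the macrophage sum. In M2 lists moved in both directions. The 6 M1 markers, led by Irf1, summed to 63.2, 63.4 and 62 FPKM in untreated WT libraries of M2. In DA-treated WT they summed to 42.5, 43.5 and 44.8, below the other 9 M2 libraries. The macrophage markers summed to 10719, 10889.8 and 10787 FPKM in untreated WT and 8361, 8349 and 8388 in DA-treated WT libraries, and the latter were below the other 9 M2 libraries. Lyz2 averaged 6800 FPKM in untreated WT and 4750 in DA-treated WT cells, and Cd14 155 and 57.4. Csf1r, Adgre1, Mertk and Fcgr1 also had lower means with DA. Cd68 was nearly level at 2230 and 2210, and Itgam was higher, at 132 and 198. The 5 osteoclast markers, led by Ctsk, summed to 47, 44.8 and 47.7 FPKM in untreated WT, 22.7, 23.1 and 23 in DA-treated WT, 55.9, 58.4 and 56.3 in untreated DRD5-/- and 52.6, 50.6 and 50.2 in DA-treated DRD5-/- libraries. The sum was lower in the 3 DA-treated WT libraries than in any other. The 4 epithelial markers, Cdh1, Krt8, Krt18 and Epcam, summed to 2.24, 2.18 and 2.22 FPKM in untreated WT, 17, 16.8 and 17.2 in DA-treated WT, 1.09, 1.16 and 1.09 in untreated DRD5-/- and 1.0, 1.05 and 1.4 in DA-treated DRD5-/- libraries, with the DA-treated WT libraries above all others. That difference came from Cdh1 alone (2.18 and 17 FPKM as means of untreated and DA-treated WT), since Krt8, Krt18 and Epcam stayed at or below 0.04 FPKM in every M2 library. The 6 fibroblast markers, led by Dcn, summed to 129.7, 127 and 129 FPKM in untreated WT, 105, 103 and 104 in DA-treated WT, 79.6, 79.8 and 81.6 in untreated DRD5-/- and 87, 87.3 and 88.3 in DA-treated DRD5-/- libraries, so the sum was higher in the WT libraries than in the DRD5-/- libraries. This did not hold for each gene: Dcn averaged 75.1 FPKM in untreated and 43.3 in DA-treated WT, and 42.5 and 49.4 in DRD5-/- cells. With DA in WT, Dcn, Lum and Pdgfra had lower means, and Col1a1, Col1a2 and Col3a1 higher ones. The T cell, B cell, erythroid, mast cell and neuron lists each summed to at most 3.86 FPKM in any library. No list's part in the results below was tested.

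**Figure D1:**
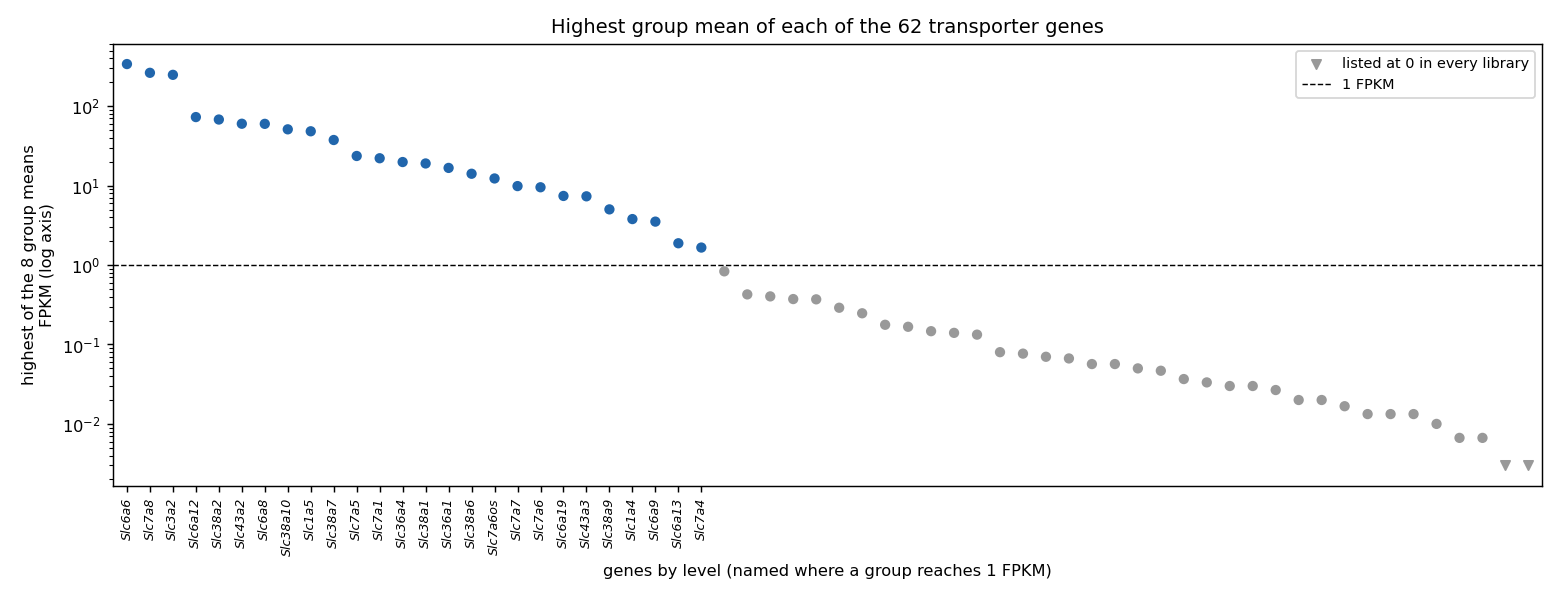
Highest of the 8 group means of each of the 62 genes, in FPKM on a log axis, ordered by level and named where they reach 1 FPKM, which a dashed line marks. Blue points reach 1 FPKM in at least 1 group (26 genes), grey points stay below it in every group (36 genes), and triangles mark the 2 genes listed at 0 in every library that holds them.

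Levels differed widely between the genes. FPKM is a read count scaled by transcript length and library size, so it allows levels of different genes to be compared. Across the 8 groups, 26 of the 62 genes had a mean of at least 1 FPKM in some group and 36 stayed below 1 FPKM in all of them. None of those 36 reached 1 FPKM in a single library, and 24 of them stayed below 0.1 FPKM as a mean in every group. By family, the genes below 1 FPKM were 5 of 7 in Slc1, 1 of 2 in Slc3, 15 of 21 in Slc6, 7 of 14 in Slc7, 2 of 4 in Slc36, 5 of 11 in Slc38 and 1 of 3 in Slc43.

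The Slc1 genes below 1 FPKM in every group were the glutamate transporters Slc1a1, Slc1a2, Slc1a3, Slc1a6 and Slc1a7. In Slc3 it was Slc3a1, the heavy chain of the renal and intestinal carriers. In Slc6 they included Slc6a11 (GABA), Slc6a5, Slc6a7, Slc6a20a and Slc6a20b (glycine and proline), Slc6a2, Slc6a3 and Slc6a4 (monoamines), and Slc6a15, Slc6a16, Slc6a17, Slc6a18, Slc6a21 and Slc6a19os. In Slc7 they were Slc7a3 and Slc7a14 (cationic group) and Slc7a9, Slc7a10, Slc7a12, Slc7a13 and Slc7a15 (light chains). The remaining ones were Slc36a2, Slc36a3, Slc38a3, Slc38a4, Slc38a5, Slc38a8, Slc38a11 and Slc43a1. Slc38a5 and Slc7a9, which are in the M1 files only, were listed at 0 in every M1 library.

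The plasma membrane dopamine transporter was close to 0. Slc6a3 was listed at 0 in 11 of 12 M1 libraries and 10 of 12 M2 libraries, and its other values were 0.02 FPKM in 1 untreated M1 WT library, 0.01 in 1 untreated M2 WT library and 0.04 in 1 untreated M2 DRD5-/- library. The noradrenaline transporter Slc6a2 ranged from 0 to 0.05 FPKM in M1 and from 0 to 0.03 in M2. In M1 this gene was at 0, 0.02 and 0.03 FPKM in untreated WT, 0.04, 0.01 and 0 in DA-treated WT, 0.02, 0.02 and 0 in untreated DRD5-/- and 0.02, 0.02 and 0.05 in DA-treated DRD5-/- libraries, and in M2 at 0.01, 0.02 and 0.01 FPKM in untreated WT, 0.01, 0 and 0.03 in DA-treated WT, 0.03, 0.01 and 0.03 in untreated DRD5-/- and 0.02, 0.01 and 0.01 in DA-treated DRD5-/- libraries. No group of either gene stood clear of the others. The read depth behind these low values is unknown, since the files give FPKM to 2 decimals and neither counts nor lengths.

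The serotonin transporter Slc6a4 had the highest level of the 36 genes. Its M1 values were 0.61, 0.81 and 0.96 FPKM in untreated WT, 0.36, 0.48 and 0.41 in DA-treated WT, 0.71, 0.76 and 0.95 in untreated DRD5-/- and 0.70, 0.92 and 0.88 in DA-treated DRD5-/- libraries. In M2 it was lower, at 0.18, 0.13 and 0.14 FPKM in untreated WT, 0.05, 0.05 and 0.04 in DA-treated WT, 0.29, 0.13 and 0.16 in untreated DRD5-/- and 0.09, 0.11 and 0.18 in DA-treated DRD5-/- libraries. In each stimulus the 3 DA-treated WT libraries lay below the other 9. It did not reach the filter for testing, so no test is given.

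A group of 3 genes held most of the transporter signal. Summed over the listed genes other than the opposite-strand pair, transporters made up 820.0, 811 and 826 FPKM in untreated M1 WT and 965, 977 and 965 in untreated M2 WT libraries. Slc3a2, Slc7a8 and Slc6a6 together accounted for a mean of 73.6% of that sum in untreated M1 WT and 55.4% in untreated M2 WT cells. With DA the sum in M2 WT was 1114, 1097 and 1111 FPKM, above all other M2 libraries, whereas in M2 DRD5-/- cells it was 943, 928 and 928 without DA and 966, 941 and 952 with it.

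For tests, genes were kept if 3 or more of a stimulus's 12 libraries had 1 FPKM or more, which left 24 of the 59 genes in M1 and 25 of 59 in M2. A gene is called here when limma on log2(FPKM + 1) gave an adjusted p below 0.001 together with a 1.2-fold or larger change, with p-values adjusted over all 10040 genes tested in M1 or 10735 in M2. Differences below are on that log2 scale, which understates the change of low genes. Of the tested genes, 21 in M1 and 22 in M2 were at 1 FPKM or more in all 12 libraries, and the filter favours genes that are high in at least 1 group, so the counts below describe the genes that passed it.

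**Figure D2:**
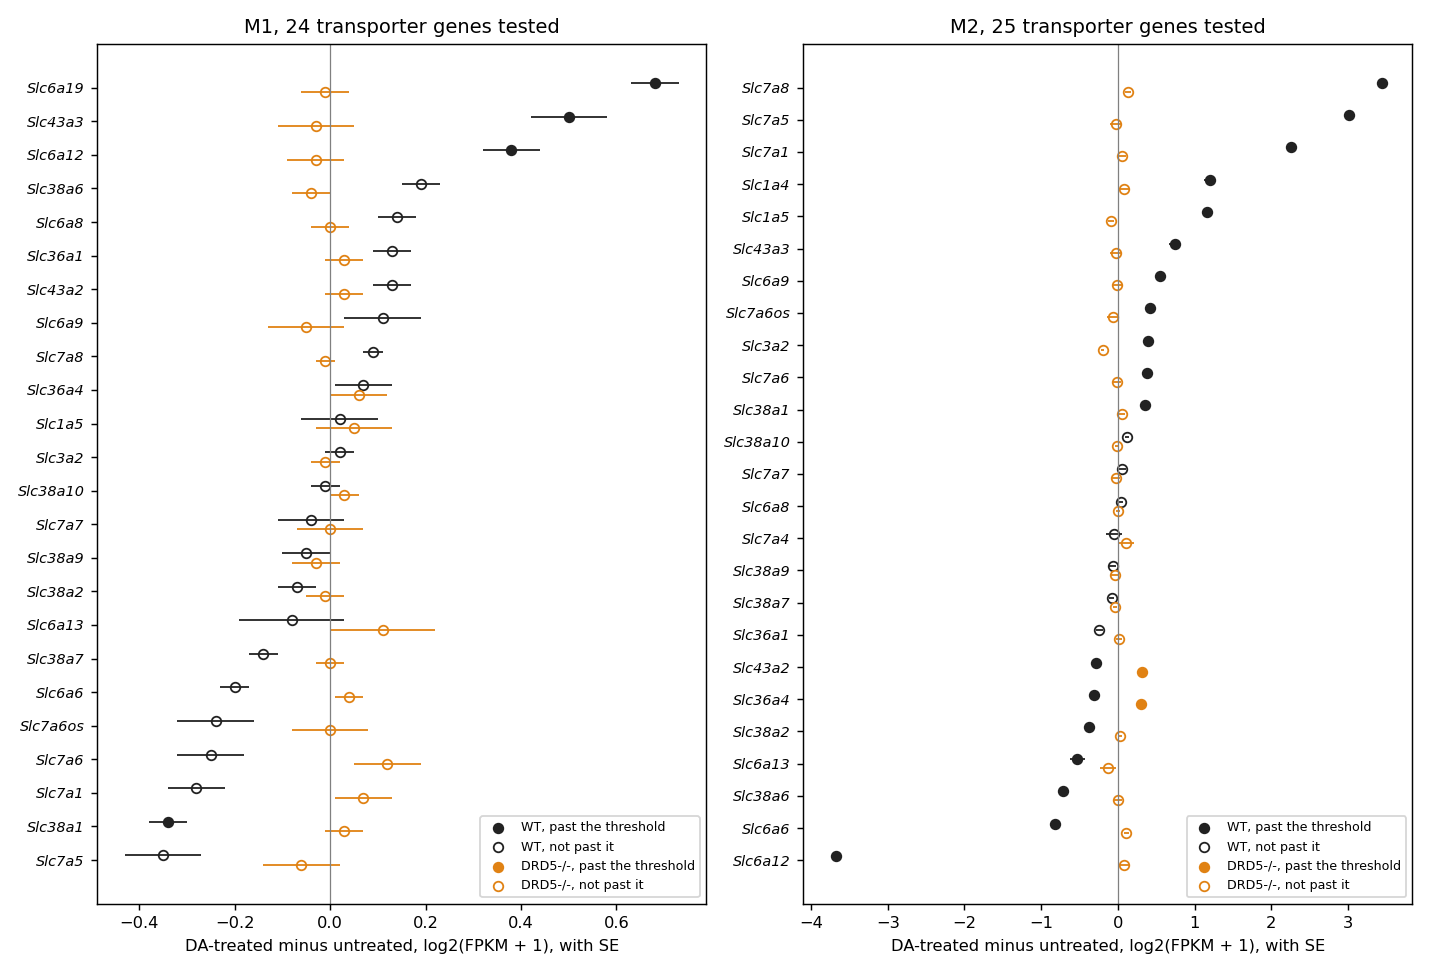
Difference between DA-treated and untreated cells, on the log2(FPKM + 1) scale, for the 24 transporter genes tested in M1 and the 25 tested in M2. Black is WT and orange DRD5-/-, bars are standard errors, filled points passed the threshold, the scales of the panels differ, and in M1 no DRD5-/- point is filled.

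In M2 WT cells DA changed most of the transporter genes tested. Of the 25 genes, 18 were called, 11 higher and 7 lower. Among all genes tested in that comparison 46.3% were called, 25.9% higher and 20.4% lower. The 11 higher genes include Slc1a4, which was tested only because it was high in DA-treated WT cells. The median absolute difference was 0.39 for the transporter genes and 0.27 for all genes tested. The genes that rose were Slc7a8, Slc7a5, Slc7a1, Slc1a4, Slc1a5, Slc43a3, Slc6a9, Slc7a6os, Slc3a2, Slc7a6 and Slc38a1, and those that fell were Slc6a12, Slc6a6, Slc38a6, Slc6a13, Slc38a2, Slc36a4 and Slc43a2.

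**Figure D3:**
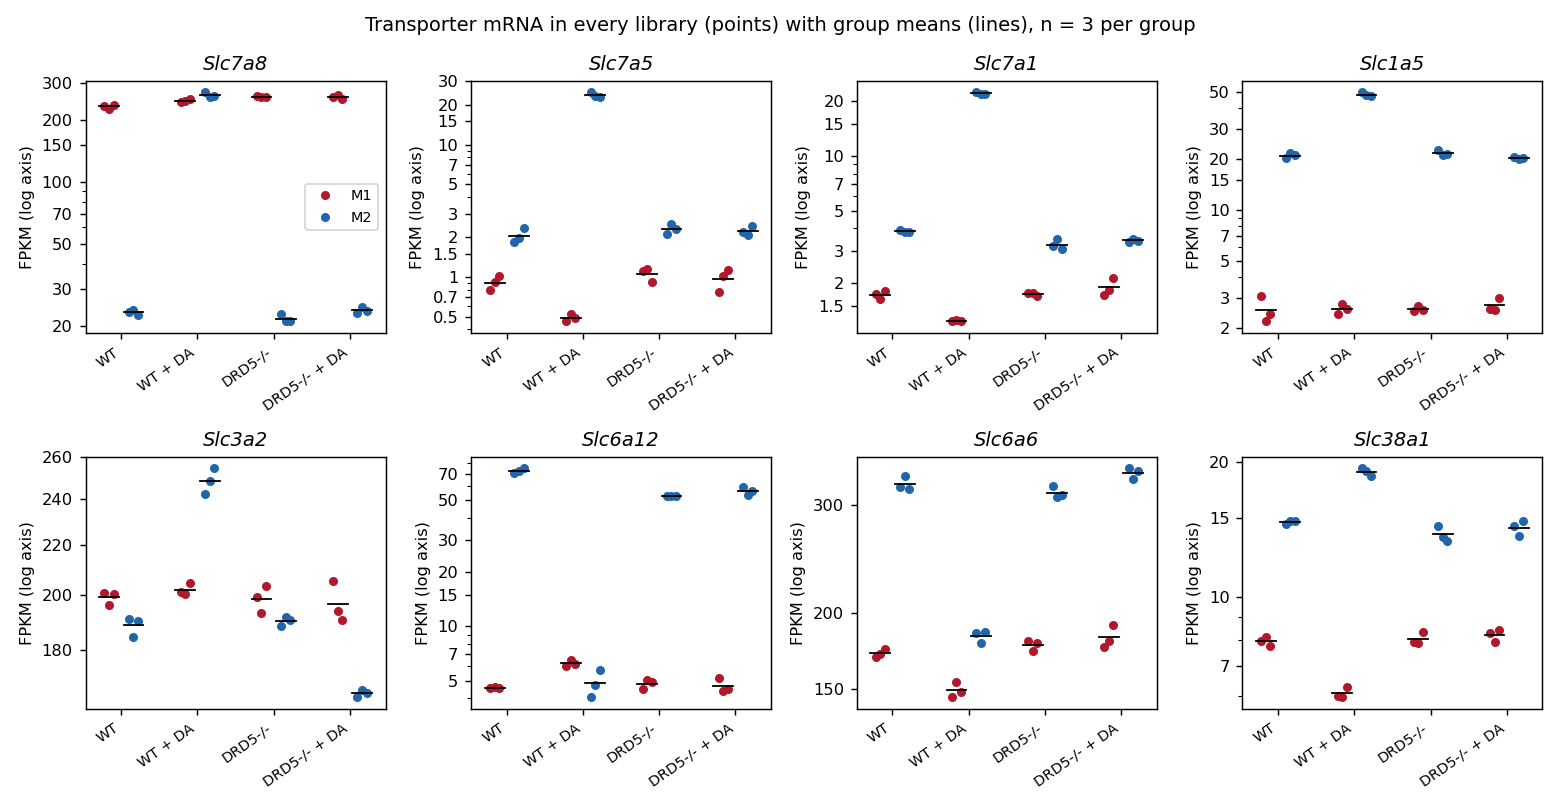
FPKM of 8 transporter genes in every library, on log axes, with M1 in red and M2 in blue, and a line at each group mean (n = 3). In M2 the DA-treated WT libraries stand apart from the other 9 in all 8 panels, above them for Slc7a8, Slc7a5, Slc7a1, Slc1a5, Slc3a2 and Slc38a1 and below them for Slc6a12 and Slc6a6.

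Among the light chains, Slc7a8 (gene at chr14:54722215-54781886, RefSeq, GRCm38.p6, as for the other positions) had the largest difference on the log2(FPKM + 1) scale, though the ratio of means of Slc7a5 was slightly higher. Its M2 values were 23.5, 23.8 and 22.5 FPKM in untreated WT, 270.5, 256 and 261 in DA-treated WT, 22.8, 21 and 21.1 in untreated DRD5-/- and 23, 24.6 and 23.7 in DA-treated DRD5-/- libraries. All 3 DA-treated WT libraries were far above the other 9, which lay close together. The ratio of group means in WT was 11.3, and the difference was 3.44 (SE 0.04, limma adjusted p = 8.84e-17). In DRD5-/- cells it was 0.13 (SE 0.04, limma adjusted p = 0.0191), and the difference between the DA effects of the genotypes was 3.31 (SE 0.05, limma adjusted p = 1.57e-14). In M1 the gene was high in every group, at 233, 226 and 236 FPKM in untreated WT, 243, 247 and 251 in DA-treated WT, 260.1, 257 and 258 in untreated DRD5-/- and 257, 262 and 252 in DA-treated DRD5-/- libraries. The untreated DRD5-/- libraries were above the untreated WT libraries without overlap, by 0.16 (SE 0.02, limma adjusted p = 0.00118), which is under 1.2-fold. The level of DA-treated M2 WT cells lay near that of M1 cells, as values from separate sets of files, which may have been processed apart.

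Slc7a5 (LAT1, chr8:121881146-121907686) followed in M2, at 1.83, 1.95 and 2.32 FPKM in untreated WT, 24.7, 23.2 and 22.8 in DA-treated WT, 2.09, 2.51 and 2.29 in untreated DRD5-/- and 2.19, 2.06 and 2.43 in DA-treated DRD5-/- libraries. Libraries of DA-treated WT cells were again all above the rest. The ratio of means in WT was 11.6 and the difference 3.02 (SE 0.07, limma adjusted p = 7.75e-14), against -0.03 (SE 0.07, limma adjusted p = 0.77) in DRD5-/- cells and a difference between genotypes of 3.05 (SE 0.10, limma adjusted p = 6.14e-12). In M1 its level was low, at 0.79, 0.91 and 1.01 FPKM in untreated WT, 0.46, 0.52 and 0.49 in DA-treated WT, 1.11, 1.15 and 0.91 in untreated DRD5-/- and 0.77, 1.02 and 1.12 in DA-treated DRD5-/- libraries. There the DA-treated WT libraries were the lowest of the 12, with a difference of -0.35 (SE 0.08, limma adjusted p = 0.00282) that was not called against untreated WT but was called against DA-treated DRD5-/- cells, at -0.40 (SE 0.08, limma adjusted p = 9.33e-04). That second call was lost without a filter (-0.40), with median-of-ratios scaling (-0.37) and with a replicate block. It was also lost without any single library other than untreated DRD5-/- replicate 3 and DA-treated DRD5-/- replicate 1.

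The other light chains moved less. Slc7a6 in M2 was at 6.89, 7.2 and 7.24 FPKM in untreated WT, 9.55, 9.84 and 9.19 in DA-treated WT, 6.19, 6.72 and 5.69 in untreated DRD5-/- and 5.99, 6.2 and 6.26 in DA-treated DRD5-/- libraries. DA-treated WT libraries lay above all others, by 0.38 (SE 0.05, limma adjusted p = 1.28e-05) in WT. M1 libraries had it at 1.18, 1.07 and 1.11 FPKM in untreated WT, 0.89, 0.70 and 0.77 in DA-treated WT, 1.06, 1.29 and 1.22 in untreated DRD5-/- and 1.44, 1.52 and 1.2 in DA-treated DRD5-/- libraries, with the DA-treated WT libraries the lowest. That difference was -0.25 (SE 0.07, limma adjusted p = 0.0134) against untreated WT, not called, and -0.42 (SE 0.07, limma adjusted p = 2.87e-04) against DA-treated DRD5-/- cells, called. That call was lost without DA-treated WT replicate 2 (-0.38), DA-treated WT replicate 3 (-0.41), DA-treated DRD5-/- replicate 1 (-0.40) or DA-treated DRD5-/- replicate 2 (-0.38).

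Slc7a7, the light chain that exports cationic amino acids, was at 6.64, 5.84 and 6.63 FPKM in untreated WT, 6.28, 6.84 and 6.8 in DA-treated WT, 8.36, 7.72 and 7.78 in untreated DRD5-/- and 8.19, 7.37 and 7.83 in DA-treated DRD5-/- libraries in M2. Its DA-treated and untreated libraries overlapped in both genotypes, and the untreated DRD5-/- libraries were above the untreated WT libraries. The WT difference was 0.05 (SE 0.06, limma adjusted p = 0.405). In M1 it was at 9.15, 9.08 and 8.02 FPKM in untreated WT, 8.28, 8.11 and 8.96 in DA-treated WT, 9.45, 11.1 and 9.06 in untreated DRD5-/- and 10.6, 9.75 and 9.17 in DA-treated DRD5-/- libraries, where groups overlapped with and without DA, and the WT difference was -0.04 (SE 0.07, limma adjusted p = 0.642).

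The heavy chain Slc3a2 was among the 3 most abundant genes. M2 libraries had it at 191, 185 and 190.4 FPKM in untreated WT, 242, 248 and 255 in DA-treated WT, 188, 192 and 190.5 in untreated DRD5-/- and 165, 167 and 166 in DA-treated DRD5-/- libraries. DA-treated WT libraries were the highest and DA-treated DRD5-/- libraries the lowest, with no overlap with the untreated ones. The difference was 0.39 (SE 0.02, limma adjusted p = 1.48e-09) in WT, -0.20 (SE 0.02, limma adjusted p = 4.33e-05) in DRD5-/- cells, which is under 1.2-fold, and 0.59 (SE 0.03, limma adjusted p = 1.55e-09) between the genotypes. Its M1 values were 201, 196 and 200.2 FPKM in untreated WT, 201, 200.3 and 205 in DA-treated WT, 199, 193 and 203 in untreated DRD5-/- and 205, 194 and 191 in DA-treated DRD5-/- libraries, with overlapping groups and a WT difference of 0.02 (SE 0.03, limma adjusted p = 0.594).

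**Figure D4:**
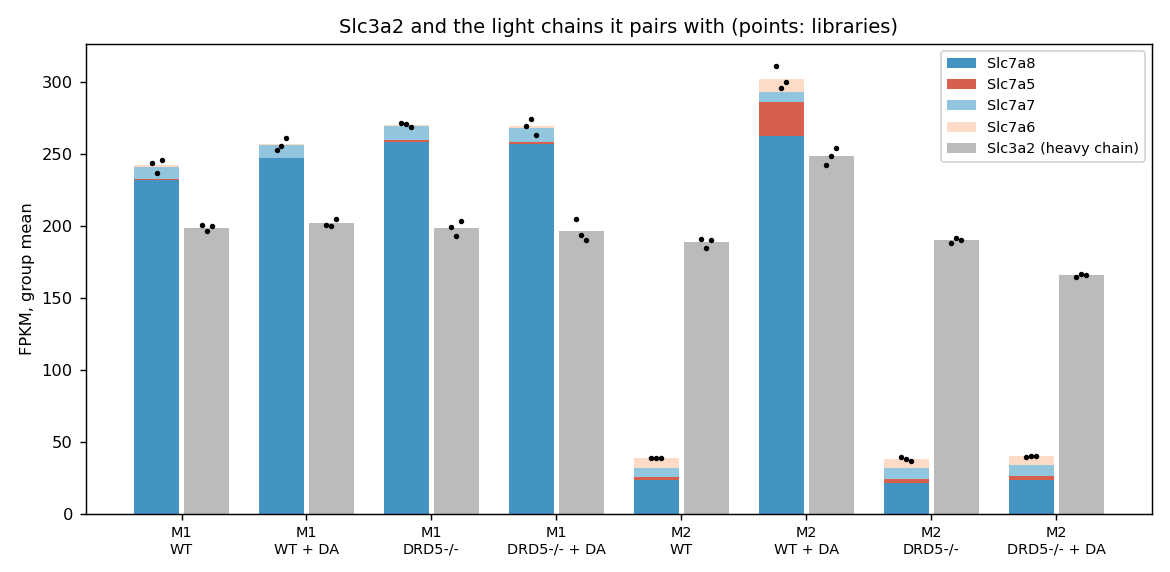
Group mean FPKM of the light chains Slc7a8, Slc7a5, Slc7a7 and Slc7a6 (stacked) beside that of the heavy chain Slc3a2 (grey) in the 8 groups, with points for the sum of the light chains and for Slc3a2 in each library. The stacked light chains exceed Slc3a2 in all M1 groups and in DA-treated M2 WT cells, and fall far short of it in the other 3 M2 groups.

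As a ratio of FPKM, the summed light chains Slc7a5, Slc7a6, Slc7a7 and Slc7a8 stood at 0.203, 0.21 and 0.203 of Slc3a2 in untreated M2 WT and 1.28, 1.19 and 1.18 in DA-treated M2 WT libraries. The same ratio was 0.21, 0.198 and 0.194 in untreated and 0.239, 0.241 and 0.242 in DA-treated M2 DRD5-/- libraries. In M1 it ran from 1.21 to 1.42 over the 12 libraries. Only DA-treated WT cells among the 4 M2 groups had more light chain than heavy chain RNA by this measure, and no test was made of the ratio.

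The cationic carrier Slc7a1 (CAT1, chr5:148327410-148399904), which takes up arginine and lysine, was at 3.9, 3.8 and 3.84 FPKM in untreated WT, 22.4, 22 and 22.1 in DA-treated WT, 3.2, 3.49 and 3.09 in untreated DRD5-/- and 3.38, 3.49 and 3.42 in DA-treated DRD5-/- libraries in M2. The DA-treated WT libraries stood above the other 9. The ratio of means in WT was 5.76, and the differences were 2.26 (SE 0.04, limma adjusted p = 1.25e-14) in WT, 0.06 (SE 0.04, limma adjusted p = 0.339) in DRD5-/- cells and 2.2 (SE 0.06, limma adjusted p = 1.54e-12) between them. In M1 the gene was at 1.74, 1.64 and 1.8 FPKM in untreated WT, 1.23, 1.26 and 1.23 in DA-treated WT, 1.77, 1.77 and 1.7 in untreated DRD5-/- and 1.71, 1.83 and 2.14 in DA-treated DRD5-/- libraries. The 3 DA-treated WT libraries were the lowest of the 12, by -0.28 (SE 0.06, limma adjusted p = 0.00247) against untreated WT, not called, and -0.37 (SE 0.06, limma adjusted p = 2.74e-04) against DA-treated DRD5-/- cells, called. The latter call was lost without DA-treated WT replicate 1 (-0.36), DA-treated WT replicate 2 (-0.37), DA-treated WT replicate 3 (-0.36) or DA-treated DRD5-/- replicate 3 (-0.31).

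Of the same family but outside the rule, the arginine carrier Slc7a2 differed by -0.41 (SE 0.03, limma adjusted p = 1.15e-07) with DA in M1 WT and by 1.54 (SE 0.03, limma adjusted p = 9.48e-15) in M2 WT cells. The cystine carrier Slc7a11, another partner of Slc3a2, differed by 0.49 (SE 0.05, limma adjusted p = 6.93e-07) in M1 WT and by -0.57 (SE 0.06, limma adjusted p = 3.60e-07) in M2 WT cells. Slc7a4 was tested in M2 only, ranged from 1.02 to 1.82 FPKM and was not called in any of the 5 contrasts.

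The neutral amino acid exchangers of Slc1 rose in M2 WT cells. Slc1a5 (ASCT2, chr7:16781334-16798274), which exchanges glutamine, was at 20.3, 21.6 and 21.1 FPKM in untreated WT, 49.7, 47.8 and 47.4 in DA-treated WT, 22.7, 21.2 and 21.4 in untreated DRD5-/- and 20.7, 19.96 and 20.3 in DA-treated DRD5-/- libraries. Libraries of DA-treated WT cells were more than 2 times as high as any other. The difference was 1.16 (SE 0.04, limma adjusted p = 1.16e-12) in WT and -0.09 (SE 0.04, limma adjusted p = 0.0531) in DRD5-/- cells, with 1.26 (SE 0.05, limma adjusted p = 4.64e-11) between them. M1 libraries had it at 3.07, 2.18 and 2.42 FPKM in untreated WT, 2.42, 2.75 and 2.57 in DA-treated WT, 2.52, 2.69 and 2.56 in untreated DRD5-/- and 2.59, 2.54 and 3.01 in DA-treated DRD5-/- libraries, where the groups overlapped and the WT difference was 0.02 (SE 0.08, limma adjusted p = 0.892).

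Slc1a4 (ASCT1), which exchanges alanine, serine and cysteine, was at 1.29, 0.99 and 0.97 FPKM in untreated WT, 4.06, 3.48 and 3.83 in DA-treated WT, 0.87, 0.66 and 0.79 in untreated DRD5-/- and 1.0, 0.78 and 0.84 in DA-treated DRD5-/- libraries in M2. The 3 DA-treated WT libraries were above all others, and without them it would not have reached the filter. It was tested because it was high in that group, so its p-value is not given and its place among the M2 calls adds no support. Its difference was 1.2 (SE 0.08) in WT and 0.08 (SE 0.08) in DRD5-/- cells. In M1 it stayed under 1 FPKM in every library and was not tested.

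Of the Slc6 genes tested in M2, Slc6a12, Slc6a13 and Slc6a6 fell with DA in WT cells, Slc6a9 rose and Slc6a8 was not called. Slc6a12 (BGT1, chr6:121342574-121365773), which carries betaine and GABA, was at 70.9, 72.4 and 75.3 FPKM in untreated WT, 4.05, 4.73 and 5.7 in DA-treated WT, 53, 53 and 53.1 in untreated DRD5-/- and 59.4, 53.6 and 55.9 in DA-treated DRD5-/- libraries in M2. DA-treated WT libraries were the lowest by a wide margin, and both DRD5-/- groups lay below untreated WT without overlap. The ratio of the untreated to the DA-treated mean in WT was 15.1, and the difference was -3.67 (SE 0.07, limma adjusted p = 1.83e-14), against 0.08 (SE 0.07, limma adjusted p = 0.419) in DRD5-/- cells and -3.76 (SE 0.10, limma adjusted p = 1.46e-12) between them. In M1 it was at 4.57, 4.6 and 4.56 FPKM in untreated WT, 6.06, 6.51 and 6.18 in DA-treated WT, 4.48, 5.02 and 4.93 in untreated DRD5-/- and 5.18, 4.37 and 4.5 in DA-treated DRD5-/- libraries. There the DA-treated WT libraries were the highest, by 0.38 (SE 0.06, limma adjusted p = 1.27e-04), the direction opposite to M2, and this call was lost without DA-treated WT replicate 2 (0.35). Against DA-treated DRD5-/- cells it was 0.35 (SE 0.06, limma adjusted p = 1.83e-04), a call lost without DA-treated WT replicate 2 (0.33), DA-treated DRD5-/- replicate 2 (0.31) or DA-treated DRD5-/- replicate 3 (0.33).

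Slc6a13 (GAT2), which carries GABA and lies next to Slc6a12 on chromosome 6 (chr6:121300288-121337721), was at 1.27, 1.18 and 1.57 FPKM in untreated WT, 0.61, 0.76 and 0.49 in DA-treated WT, 0.96, 1.44 and 1.17 in untreated DRD5-/- and 0.83, 1.18 and 0.97 in DA-treated DRD5-/- libraries in M2. The DA-treated WT libraries were the lowest of the 12. The difference was -0.53 (SE 0.10, limma adjusted p = 2.58e-04), and the call was lost without untreated WT replicate 3 (-0.46), DA-treated WT replicate 1 (-0.53) or DA-treated WT replicate 3 (-0.47). In M1 it ranged from 1.43 to 2.13 FPKM and was not called in any contrast.

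The taurine transporter Slc6a6 had the highest level of these genes in untreated M2 cells, at 321, 336 and 319 FPKM in untreated WT, 185, 179 and 186 in DA-treated WT, 323, 309.6 and 312 in untreated DRD5-/- and 345, 331 and 342 in DA-treated DRD5-/- libraries. Libraries of DA-treated WT cells lay far below the other 9. The difference was -0.82 (SE 0.03, limma adjusted p = 3.43e-12) in WT, 0.11 (SE 0.03, limma adjusted p = 0.00872) in DRD5-/- cells and -0.93 (SE 0.04, limma adjusted p = 8.09e-11) between them. Its M1 values were 169.6, 171 and 175 FPKM in untreated WT, 146, 154 and 149 in DA-treated WT, 180.2, 173 and 179 in untreated DRD5-/- and 176, 180.1 and 191 in DA-treated DRD5-/- libraries, with the DA-treated WT libraries the lowest. The M1 difference was -0.20 (SE 0.03, limma adjusted p = 1.69e-04) against untreated WT, under 1.2-fold, and -0.28 (SE 0.03, limma adjusted p = 4.79e-06) against DA-treated DRD5-/- cells, called, a call lost with median-of-ratios scaling (-0.22) and without DA-treated DRD5-/- replicate 3 (-0.25).

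The creatine transporter Slc6a8 differed little. In M2 it was at 53.7, 53.1 and 52.4 FPKM in untreated WT, 55.1, 54.7 and 54.2 in DA-treated WT, 59.4, 58.3 and 62 in untreated DRD5-/- and 60.8, 59 and 59.4 in DA-treated DRD5-/- libraries. M1 libraries had it at 30.6, 29.6 and 28.2 FPKM in untreated WT, 31.9, 33.2 and 32.5 in DA-treated WT, 33, 31.4 and 31.6 in untreated DRD5-/- and 32.6, 31.8 and 31.4 in DA-treated DRD5-/- libraries. DA-treated WT libraries were slightly above untreated WT libraries in both, by 0.04 (SE 0.03, limma adjusted p = 0.165) in M2 and 0.14 (SE 0.04, limma adjusted p = 0.00574) in M1, and neither was called.

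The glycine transporter Slc6a9 was at 2.08, 2.07 and 2.12 FPKM in untreated WT, 3.6, 3.34 and 3.63 in DA-treated WT, 1.22, 1.23 and 1.03 in untreated DRD5-/- and 1.32, 1.24 and 0.91 in DA-treated DRD5-/- libraries in M2. DA-treated WT libraries were the highest, untreated WT was in the middle, and both DRD5-/- groups were lowest. The difference was 0.55 (SE 0.07, limma adjusted p = 1.09e-05) with DA in WT and -0.52 (SE 0.07, limma adjusted p = 1.47e-04) for untreated DRD5-/- against untreated WT, the latter lost without untreated DRD5-/- replicate 3 (-0.47). The gene shares 27.8% of its exon bases with Ccdc24 on the opposite strand, and whether the authors counted by strand is not given in the sources used here, so its reads may not be its own alone. In M1 it ranged from 0.85 to 1.37 FPKM and was not called.

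Slc6a19, the sodium-coupled carrier of neutral amino acids in gut and kidney, reached 1 FPKM in M1 only. It was at 4.11, 4.54 and 4.14 FPKM in untreated WT, 7.57, 7.31 and 7.34 in DA-treated WT, 3.9, 3.57 and 3.97 in untreated DRD5-/- and 3.73, 3.9 and 3.7 in DA-treated DRD5-/- libraries. The 3 DA-treated WT libraries were above the other 9, by 0.68 (SE 0.05, limma adjusted p = 1.19e-07) against untreated WT, 0.82 (SE 0.05, limma adjusted p = 1.40e-08) against DA-treated DRD5-/- cells and 0.69 (SE 0.07, limma adjusted p = 8.64e-06) for the difference of DA effects. In M2 its highest group mean was 0.0367 FPKM.

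Among the sodium-coupled neutral carriers, Slc38a1 (SNAT1) moved in opposite directions in the 2 stimuli. Its M2 values were 14.5, 14.8 and 14.7 FPKM in untreated WT, 19.4, 19.1 and 18.6 in DA-treated WT, 14.4, 13.6 and 13.3 in untreated DRD5-/- and 14.4, 13.7 and 14.7 in DA-treated DRD5-/- libraries. The DA-treated WT libraries were the highest, by 0.35 (SE 0.04, limma adjusted p = 9.97e-07). In M1 it was at 7.96, 8.14 and 7.78 FPKM in untreated WT, 6.0, 5.97 and 6.29 in DA-treated WT, 7.93, 7.87 and 8.33 in untreated DRD5-/- and 8.3, 7.92 and 8.45 in DA-treated DRD5-/- libraries, and there the DA-treated WT libraries were the lowest, by -0.34 (SE 0.04, limma adjusted p = 2.14e-05). The difference of DA effects between genotypes was 0.31 (SE 0.05, limma adjusted p = 1.57e-04) in M2 and -0.37 (SE 0.06, limma adjusted p = 4.89e-04) in M1. The latter call was lost with median-of-ratios scaling (-0.30), with a replicate block and without any of 8 single libraries, listed below.

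Slc38a2 (SNAT2) in M2 was at 68.1, 67.5 and 68 FPKM in untreated WT, 53.1, 50.9 and 52 in DA-treated WT, 59.99, 60.2 and 60.00 in untreated DRD5-/- and 62.9, 60.9 and 59.9 in DA-treated DRD5-/- libraries. Libraries of DA-treated WT cells were the lowest, and the DRD5-/- libraries lay between them and untreated WT. The WT difference was -0.38 (SE 0.03, limma adjusted p = 6.21e-09). Its M1 values were 17.1, 17.6 and 17.5 FPKM in untreated WT, 16.9, 16.1 and 16.5 in DA-treated WT, 17.5, 16.2 and 16.3 in untreated DRD5-/- and 16.2, 16.7 and 16.9 in DA-treated DRD5-/- libraries, where the DA-treated WT libraries were below the untreated ones without overlap, and the WT difference was -0.07 (SE 0.04, limma adjusted p = 0.134).

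Slc38a6 was at 8.84, 9.57 and 9.38 FPKM in untreated WT, 5.13, 5.12 and 5.58 in DA-treated WT, 7.92, 8.47 and 7.48 in untreated DRD5-/- and 8.19, 7.54 and 8.04 in DA-treated DRD5-/- libraries in M2. DA-treated WT libraries were the lowest, by -0.71 (SE 0.05, limma adjusted p = 1.79e-08), and in M1 they were the highest, by 0.19 (SE 0.04, limma adjusted p = 0.00321), which is under 1.2-fold. Slc38a7, a lysosomal glutamine carrier, was at 24.6, 24 and 22.6 FPKM in untreated WT, 21.7, 21 and 21.7 in DA-treated WT, 28.1, 27.9 and 28 in untreated DRD5-/- and 28, 28.3 and 27.9 in DA-treated DRD5-/- libraries in M1. All 6 DRD5-/- libraries were above all 6 WT libraries there. With DA, the difference of WT from DRD5-/- cells was -0.37 (SE 0.03, limma adjusted p = 4.98e-07), called, while that between untreated DRD5-/- and untreated WT cells was 0.23 (SE 0.03, limma adjusted p = 6.46e-04), under 1.2-fold. In M2 the order was the opposite and the difference smaller, with the 6 WT libraries at 34.92 to 38.28 FPKM and the 6 DRD5-/- libraries at 31.94 to 33.6. The untreated DRD5-/- cells differed there from untreated WT by -0.15 (SE 0.03, limma adjusted p = 8.31e-04), under 1.2-fold. In the M1 comparison of genotypes the neutrophil and heart muscle sums given above also differed.

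Slc38a9, the lysosomal arginine sensor of the mTORC1 pathway, was at 4.69, 5.21 and 5.16 FPKM in untreated WT, 4.77, 4.8 and 4.59 in DA-treated WT, 4.79, 4.4 and 4.66 in untreated DRD5-/- and 4.33, 4.48 and 4.53 in DA-treated DRD5-/- libraries in M2. M1 libraries had it at 4.62, 4.46 and 4.79 FPKM in untreated WT, 4.39, 4.3 and 4.57 in DA-treated WT, 4.83, 4.61 and 4.89 in untreated DRD5-/- and 4.43, 4.55 and 4.95 in DA-treated DRD5-/- libraries. Every library lay between 4.3 and 5.21 FPKM, and it was not called in any of the 10 contrasts. Slc38a10 ranged from 29.2 to 32.1 FPKM in M1 and from 45 to 52.8 in M2 and was not called either.

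The Slc36 family member Slc36a4 and the L-type carrier Slc43a2 differed with DA in both M2 genotypes, in opposite directions. Slc36a4 was at 16.1, 15.3 and 16.1 FPKM in untreated WT, 11.7, 13.2 and 12.7 in DA-treated WT, 16.7, 15.3 and 15.8 in untreated DRD5-/- and 21, 19.9 and 18.4 in DA-treated DRD5-/- libraries. Slc43a2 was at 48, 47.4 and 46 FPKM in untreated WT, 39, 38.2 and 38.6 in DA-treated WT, 49.4, 48.1 and 46.5 in untreated DRD5-/- and 59.98, 60.3 and 59.99 in DA-treated DRD5-/- libraries. For both genes the DA-treated WT libraries were the lowest and the DA-treated DRD5-/- libraries the highest, with no overlap with the untreated libraries.

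The differences for Slc36a4 were -0.31 (SE 0.05, limma adjusted p = 8.37e-05) in WT, 0.30 (SE 0.05, limma adjusted p = 8.86e-04) in DRD5-/- cells and -0.61 (SE 0.07, limma adjusted p = 5.19e-06) between them. For Slc43a2 they were -0.28 (SE 0.03, limma adjusted p = 3.91e-07) in WT, 0.32 (SE 0.03, limma adjusted p = 3.63e-06) in DRD5-/- cells and -0.60 (SE 0.04, limma adjusted p = 8.00e-09) between them. The Slc36a4 call in DRD5-/- cells was lost without a filter (0.30), with median-of-ratios scaling (0.27) and with a replicate block. It was also lost without any single library other than DA-treated WT replicates 1 and 2 and DA-treated DRD5-/- replicate 3. Slc43a2 shares 9.18% of its exon bases with an antisense gene.

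Slc36a1, the lysosomal proton-coupled carrier, was at 10.6, 10.1 and 10.2 FPKM in untreated WT, 8.23, 9.0 and 8.43 in DA-treated WT, 10.9, 10.8 and 11.2 in untreated DRD5-/- and 10.9, 11.1 and 11.1 in DA-treated DRD5-/- libraries in M2. The DA-treated WT libraries were the lowest, by -0.24 (SE 0.04, limma adjusted p = 5.87e-05) against untreated WT, under 1.2-fold, and -0.33 (SE 0.04, limma adjusted p = 2.31e-06) against DA-treated DRD5-/- cells, called. Slc43a3, which carries purine bases rather than amino acids, was the 1 gene called in the same direction in both stimuli. M2 libraries had it at 2.29, 2.29 and 2.43 FPKM in untreated WT, 4.47, 4.51 and 4.71 in DA-treated WT, 2.33, 2.12 and 2.16 in untreated DRD5-/- and 1.94, 1.98 and 2.51 in DA-treated DRD5-/- libraries, and in M1 at 5.08, 4.41 and 5.14 FPKM in untreated WT, 7.14, 6.94 and 7.91 in DA-treated WT, 4.6, 4.67 and 5.37 in untreated DRD5-/- and 5.49, 4.59 and 4.26 in DA-treated DRD5-/- libraries. Libraries of DA-treated WT cells were the highest in both, by 0.74 (SE 0.07, limma adjusted p = 1.74e-07) and 0.50 (SE 0.08, limma adjusted p = 1.60e-04), the M1 call being lost without a filter (0.50) and without untreated WT replicate 2 (0.45) or DA-treated WT replicate 3 (0.45).

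The gene Slc7a6os was at 8.57, 10.3 and 8.0 FPKM in untreated WT, 11.9, 12.9 and 12.2 in DA-treated WT, 10.04, 10.7 and 11.2 in untreated DRD5-/- and 10.3, 10.3 and 9.52 in DA-treated DRD5-/- libraries in M2. DA-treated WT libraries were the highest of the 12, by 0.42 (SE 0.07, limma adjusted p = 8.86e-05). In M1 it ranged from 3.01 to 4.57 FPKM and was not called. Slc6a19os ranged from 0 to 0.07 FPKM in M1 and is in the M1 files only.

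DA changed few transporter genes in M2 DRD5-/- cells. The calls were the 2 described above, Slc36a4 and Slc43a2, of 25 genes, and 4.02% of all genes tested were called. That count was 1 without any of the 9 libraries on which the Slc36a4 call rests. Between untreated DRD5-/- and untreated WT cells in M2, 2 of 25 were called, Slc6a9 and Slc6a12, both lower in DRD5-/- cells, beside 5.51% of all genes. That count was 0 without untreated DRD5-/- replicate 3 and 1 without any 1 of the other 5 libraries compared. The Slc6a12 difference there was -0.45 (SE 0.07, limma adjusted p = 4.60e-04), and its call was lost without a filter, with a pseudocount of 0.1, with median-of-ratios scaling and with each of the 6 libraries compared left out in turn. With DA, WT and DRD5-/- M2 cells differed in 16 of 25 genes, 10 higher and 6 lower in WT, while 49.7% of all genes were called, 29.2% higher and 20.4% lower. The 10 higher genes include Slc1a4, which was tested only because it was high in DA-treated WT cells.

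The difference between the DA effects of the genotypes is the test of whether DA acted differently in WT and DRD5-/- cells. In M2 it was called for 17 of 25 genes, with 43.2% of all genes called. The 17 were the 18 genes called for DA in WT apart from Slc6a13. They include Slc1a4, which was tested only because it was high in DA-treated WT cells. The call was lost for Slc7a6 without untreated WT replicate 1 (0.36), DA-treated WT replicate 1 (0.38), DA-treated WT replicate 2 (0.36) or DA-treated DRD5-/- replicate 1 (0.37), and for Slc6a9 without DA-treated WT replicate 1 (0.54), DA-treated WT replicate 3 (0.54), untreated DRD5-/- replicate 1 (0.53) or untreated DRD5-/- replicate 2 (0.53). For Slc7a6os it was lost without any single library other than untreated WT replicate 2, DA-treated WT replicate 1 and untreated DRD5-/- replicate 1. All 3 were also lost without a filter, and Slc6a9 with a pseudocount of 0.1 (0.74). These comparisons share libraries, so they do not count as separate observations.

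Fewer transporter genes were called in M1 cells. With DA in M1 WT cells, 4 of 24 genes were called, against 14.3% of all genes tested. Of them 3 were higher (Slc6a19, Slc43a3 and Slc6a12, with 4.73% of all genes higher) and 1 was lower (Slc38a1, with 9.6% of all genes lower). At 16.7% of the genes tested, the share is near that of all genes. With DA in M1 DRD5-/- cells limma called 0 of 24 genes and 0% of all genes, and at an unadjusted p under 0.05 it found 0 genes and 5.67% of all genes. The largest absolute difference among the genes there was 0.12.

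Untreated DRD5-/- and untreated WT cells in M1 differed in 0 of 24 genes by limma, while 0.936% of all genes were called. At an unadjusted p under 0.05 there were 4 genes (Slc38a7, Slc6a19, Slc6a8 and Slc7a8) and 25.5% of all genes. With DA, WT and DRD5-/- cells in M1 differed in 9 of 24 genes, beside 18.5% of all genes. Of these, Slc6a12, Slc6a19 and Slc43a3 were higher in WT (5.95% of all genes were higher), and Slc7a1, Slc7a5, Slc7a6, Slc6a6, Slc38a1 and Slc38a7 were lower (12.6% were lower). That count of 9 was 5 without DA-treated WT replicate 2 and 5 without DA-treated DRD5-/- replicate 3. The neutrophil, heart muscle and lung sums given above also differed between these genotypes, and their part in the result was not tested. The difference of DA effects was called for 2 of 24 genes, Slc6a19 and Slc38a1, and for 8.38% of all genes. For Slc38a1 the call was lost with median-of-ratios scaling (-0.30) and with a replicate block. The count was 1 without any of untreated WT replicates 1 and 2, DA-treated WT replicates 1 and 2, untreated DRD5-/- replicates 1 and 2 and DA-treated DRD5-/- replicate 3, and 4 without DA-treated DRD5-/- replicate 1. The Slc38a1 call was lost without each of these 8.

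Of the 23 genes tested in both stimuli, DA in WT was called in opposite directions for Slc38a1 and Slc6a12 and in the same direction for Slc43a3. Among the 9620 genes tested in both, 5.99% were called in opposite directions and 3.04% in the same one. Slc7a1, Slc7a5, Slc7a6, Slc7a6os, Slc38a6, Slc36a1 and Slc43a2 also had DA-treated WT libraries on opposite sides of the untreated ones in M1 and M2, without overlap, but were called in at most 1 of the stimuli. With Slc38a1 and Slc6a12 these were 9 of the 23 genes, and 2741 of the 9620 genes tested in both (28.5%) had libraries placed like this. The difference between stimuli was not tested, because M1 and M2 cells came as separate sets of files.

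Set side by side, untreated WT cells of the 2 stimuli differed by 2-fold or more, as a ratio of group means of FPKM + 1, in 8 of the 56 genes listed in both. The count depends on the number added, and was 14 with 0.1 in place of 1. Of the 8, 6 were higher in M2 (15.2% of all genes listed in both) and 2 in M1 (6.86% of all genes). Higher in M2 were Slc6a12 (72.9 against 4.58 FPKM), Slc1a5 (21 against 2.56 FPKM), Slc7a6 (7.11 against 1.12 FPKM), Slc38a2 (67.9 against 17.4 FPKM), Slc7a4 (1.35 against 0.0667 FPKM) and Slc7a6os (8.96 against 3.96 FPKM). Higher in M1 were Slc7a8 (232 against 23.2 FPKM) and Slc6a19 (4.26 against 0.00667 FPKM). Stimulus and set of files cannot be told apart here, so these ratios are a description with no test.

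Other genes that handle amino acids were read from 5 lists, as DA in WT. Of all genes tested, 25.9% were called higher and 20.4% lower in M2, and 4.73% and 9.6% in M1, and the counts of each list stand beside these shares. Of 25 enzymes of amino acid metabolism, 20 were tested in M2 and 12 were higher and 4 lower (25.9% and 20.4% of all genes), with a median difference of 0.53 against 0.03 for all genes tested. The 12 include Pycr1, which was tested only because it was high in DA-treated WT cells. Asparagine synthetase Asns was at 9.04, 9.99 and 10.2 FPKM in untreated WT and 82, 82.6 and 78.6 in DA-treated WT libraries of M2. The 4 enzymes with the largest changes were Asns (2.94), Phgdh (2.49), Mthfd2 (2.39) and Psat1 (1.99), and Phgdh and Psat1 make serine. In M1, 18 were tested, 1 was higher and 6 were lower (4.73% and 9.6% of all genes), with a median of -0.17 against -0.07, led by Psat1 (-0.88), Il4i1 (-0.83), Got1 (-0.68) and Glul (0.63).

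Of 17 genes of the GCN2-ATF4 response, the pathway that senses amino acid shortage, 14 were tested in M2. There 9 were higher and 2 lower (25.9% and 20.4% of all genes), with a median of 0.35 against 0.03 for all genes. The 9 include Chac1 and Trib3, which were tested only because they were high in DA-treated WT cells. Chac1 was at 1.08, 0.94 and 0.66 FPKM in untreated WT and 10.3, 8.43 and 9.18 in DA-treated WT libraries. The largest changes were Chac1 (2.44), Trib3 (2.14), Eif4ebp1 (1.22) and Atf4 (0.68). In M1 16 were tested, 1 was higher and 3 were lower (4.73% and 9.6% of all genes), with a median of -0.15 against -0.07, and the largest were Chac1 (-0.69), Ddit4 (-0.43), Ppp1r15a (-0.42) and Atf5 (0.34).

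Of 41 genes of amino acid sensing by mTORC1, 37 were tested in M2, with 5 higher, 13 lower (46.3% of all genes were called) and a median of -0.13 against 0.03. The largest changes were Bmt2 (-1.21), Sesn1 (-0.98), Rragd (-0.89) and Castor2 (-0.86). In M1 37 were tested, with 1 higher and 5 lower (14.3% of all genes were called), a median of -0.08 against -0.07, and the largest were Sesn2 (-0.56), Itfg2 (-0.46), Akt1s1 (-0.38) and Rraga (-0.34). Of 16 other amino acid carriers, 13 were tested in each stimulus. In M2 5 were higher and 6 lower (25.9% and 20.4% of all genes), with a median of -0.25 against 0.03. The largest changes were Sfxn1 (1.42), Slc25a13 (0.96), Slc25a12 (0.92) and Slc17a5 (-0.86). In M1 0 were higher and 3 lower (4.73% and 9.6% of all genes), with a median of -0.09 against -0.07. The 3 were Slc25a15 (-0.40), Slc25a13 (-0.39) and Slc25a22 (-0.34).

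Of 13 genes for dopamine uptake by other carriers, its synthesis, storage, conversion and breakdown, 4 were tested in M2 and 3 in M1. In M2 0 were higher and 2 lower (25.9% and 20.4% of all genes), with a median of -0.35 against 0.03 for all genes. The 2 were Sult1a1 (-1.30) and Slc18a1 (-0.58). In M1 limma called 0 of the 3, beside 14.3% of all genes. Of the 3, 1 had an unadjusted p under 0.05, as had 5249 of the 10040 genes tested.

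The starts of some genes with large changes in M2 WT cells are shown. RefSeq (GRCm38.p6) promoter windows, 250 bases before to 50 after a transcript start, were found for 45 of the 62 genes, 7 of the 11 that rose and 6 of the 7 that fell. The motifs searched on both strands were TGACGTCA (cAMP response element), TGATGNAAT (C/EBP-ATF response element) and TGANNNNGC (antioxidant response element core), and capitals mark their matches. Shown are the 3 genes with a window that rose most, the one that fell most and the one whose window holds a cAMP response element. A window's transcript start can differ from the start of the gene's RefSeq record. They were the same for 9 of the 24 windows of the genes that rose or fell. For the windows shown they were the same except in Slc38a6, where the transcript start lies 109 bases after the start of the record. For Slc7a1 the first of 2 windows is shown and for Slc6a12 the first of 5. They lie at chr14:54781837-54782136 (- strand) for Slc7a8, chr5:148399855-148400154 (- strand) for Slc7a1, chr11:20332664-20332963 (- strand) for Slc1a4, chr6:121342324-121342623 (+ strand) for Slc6a12 and chr12:73286598-73286897 (+ strand) for Slc38a6.
Slc7a8: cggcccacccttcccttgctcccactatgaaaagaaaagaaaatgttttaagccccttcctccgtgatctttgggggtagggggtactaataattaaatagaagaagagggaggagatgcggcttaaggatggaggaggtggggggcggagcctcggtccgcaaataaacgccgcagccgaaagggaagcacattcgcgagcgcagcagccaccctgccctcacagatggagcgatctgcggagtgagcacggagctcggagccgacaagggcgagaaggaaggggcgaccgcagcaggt
Slc7a1: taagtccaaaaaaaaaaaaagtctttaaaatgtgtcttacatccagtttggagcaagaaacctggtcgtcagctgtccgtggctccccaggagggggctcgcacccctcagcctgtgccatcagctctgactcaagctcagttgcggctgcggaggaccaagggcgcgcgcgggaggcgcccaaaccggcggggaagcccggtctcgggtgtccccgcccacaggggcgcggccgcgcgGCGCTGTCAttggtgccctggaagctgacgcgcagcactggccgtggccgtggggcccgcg
Slc1a4: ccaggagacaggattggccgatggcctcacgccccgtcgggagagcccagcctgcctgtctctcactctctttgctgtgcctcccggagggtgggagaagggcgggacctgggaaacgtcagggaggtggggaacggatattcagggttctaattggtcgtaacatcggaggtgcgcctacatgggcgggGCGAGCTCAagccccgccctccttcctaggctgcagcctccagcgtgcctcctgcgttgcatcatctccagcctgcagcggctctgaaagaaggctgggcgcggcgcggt
Slc6a12: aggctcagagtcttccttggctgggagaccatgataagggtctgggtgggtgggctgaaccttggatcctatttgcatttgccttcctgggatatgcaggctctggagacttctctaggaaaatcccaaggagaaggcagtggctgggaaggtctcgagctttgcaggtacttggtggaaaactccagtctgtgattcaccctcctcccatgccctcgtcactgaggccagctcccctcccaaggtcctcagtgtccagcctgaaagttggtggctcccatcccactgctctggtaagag
Slc38a6: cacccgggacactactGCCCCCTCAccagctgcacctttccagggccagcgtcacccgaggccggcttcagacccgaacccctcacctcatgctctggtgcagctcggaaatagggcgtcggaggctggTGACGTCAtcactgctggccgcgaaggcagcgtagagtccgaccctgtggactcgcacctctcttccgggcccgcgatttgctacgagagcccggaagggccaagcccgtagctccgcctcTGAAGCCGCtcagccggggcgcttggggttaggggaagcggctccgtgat

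Of the 7 genes that rose and have a window, 0 held a cAMP response element, 0 a C/EBP-ATF response element and 4 an antioxidant response element core. Of the 6 that fell, 1 held a cAMP response element, 0 a C/EBP-ATF response element and 5 an antioxidant response element core. The cAMP response element is in Slc38a6, where it begins 121 bases before the transcript start. Counted by window, the antioxidant response element core was in 6 of the 11 windows of the genes that rose and 8 of the 13 of those that fell, and the cAMP response element in 0 and 1. Some windows of a gene overlap, as in Slc6a12 and Slc7a6, so the same site can be counted in several windows. Over all 32817 windows of 300 bases the shares with a match were 1.79%, 0.966% and 41.3%. In Slc7a1 the antioxidant response element core begins 11 bases before the transcript start and in Slc1a4 60 bases before it. A match describes the letters of the window, and a window without one says only that these letters are not in it.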

How the data were processed

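RNA-seq was measured in 24 mouse macrophage libraries. The authors deposited FPKM values (read fragments scaled to transcript length and library total) to 2 decimals, 1 file per library, without counts, lengths or totals, so the read depth is unknown. The study's methods name HISAT2 for mapping, and the submitters' processing notes list Bowtie2 2.2.5 and GRCm38.p6. The M1 and M2 libraries were fitted apart. Genes with at least 1 FPKM in at least 3 of 12 libraries were tested on log2(FPKM + 1) with limma 3.58.1 in R 4.3.3 (group means, intensity trend), over 5 contrasts per stimulus. A call needed a Benjamini-Hochberg adjusted p under 0.001 over all genes tested and a change of at least 1.2-fold. The fit was tested on simulated data. Values of every library are given for genes called in at least 1 contrast of a stimulus and for a fixed list of transporters of monoamines and main amino acids, whatever their values. The groups, tests, gene lists and alternatives were fixed before the data were examined, but with earlier results of these data known. The heart muscle and lung lists were added after seeing the data. The alternatives were no filter, a mean FPKM of at least 1, a pseudocount of 0.1, median-of-ratios scaling, a replicate block, an adjusted p under 0.05, and leaving out each library. Coordinates are from RefSeq (GRCm38.p6), and exon overlaps from GENCODE.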

Additional observations from a re-analysis of the deposited data

Results flagged for a closer look

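The effect of DA, tested as a difference between WT and DRD5-/- cells with limma, differed for 2 genes in M1 on the log2 scale: Slc6a19 by 0.69 and Slc38a1 by -0.37. The Slc38a1 call was lost with median-of-ratios scaling, with a replicate block and without any of 8 single libraries. In M2 it was larger in WT cells, in the direction of a rise, for Slc7a8 (3.31), Slc7a5 (3.05), Slc7a1 (2.2), Slc1a5 (1.26), Slc1a4 (1.12), Slc43a3 (0.77), Slc3a2 (0.59), Slc6a9 (0.56), Slc7a6os (0.50), Slc7a6 (0.38) and Slc38a1 (0.31). Of these, Slc1a4 was tested in M2 only because it was high in DA-treated WT cells. The calls for Slc6a9, Slc7a6 and Slc7a6os were lost without a filter and without some of the single libraries. In the direction of a fall it differed for Slc6a12 (-3.76), Slc6a6 (-0.93), Slc38a6 (-0.70), Slc36a4 (-0.61), Slc43a2 (-0.60) and Slc38a2 (-0.40).

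For 9 of the 23 genes tested in both stimuli, all DA-treated WT libraries lay on one side of the untreated WT libraries in M1 and on the other side in M2, as did 2741 of the 9620 genes tested in both (28.5%). The difference between the stimuli was not tested. The DA difference in WT was -0.34 in M1 and 0.35 in M2 for Slc38a1, -0.28 and 2.26 for Slc7a1, 0.38 and -3.67 for Slc6a12, and -0.35 and 3.02 for Slc7a5. It was 0.13 and -0.28 for Slc43a2, 0.13 and -0.24 for Slc36a1, -0.25 and 0.38 for Slc7a6, 0.19 and -0.71 for Slc38a6, and -0.24 and 0.42 for Slc7a6os.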

How the results depend on the processing

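The counts of transporter genes called for DA in M1 WT, DA in M2 WT, DA-treated WT against DRD5-/- in M2, and the M2 difference of DA effects stayed within 1.5 times the reported count under every alternative run, and the 2 counts of 0 stayed 0. No direction reversed. The count for DA in M2 DRD5-/- cells (2) was 1 without a filter and 1 with median-of-ratios scaling. That for untreated DRD5-/- against WT in M2 (2) was 1 without a filter and 1 with a pseudocount of 0.1. The M1 difference of DA effects (2) was 6 at an adjusted p under 0.05. The count of 2-fold differences between untreated M2 and M1 WT cells (8) was 14 with a pseudocount of 0.1. Leaving out each library gave 5 to 9 for DA-treated WT against DRD5-/- in M1 (9), 1 to 4 for the M1 difference of DA effects, 1 to 2 for DA in M2 DRD5-/- cells and 0 to 2 for untreated DRD5-/- against WT in M2. Of 1510 values of single genes under the alternatives, 1403 kept their direction and side of the threshold. The sources give no pairing by replicate number: libraries of the same number had mean correlations of -0.0208 in M1 and -0.016 in M2, against 0.0104 and 0.00801 for other numbers. With the replicate block the M1 difference of DA effects gave 1 (without Slc38a1), DA in M2 DRD5-/- cells gave 1 (without Slc36a4) and DA-treated WT against DRD5-/- in M1 gave 8 (without Slc7a5), and no other call was lost. Scaling moved the share of all called genes that were higher from 33 to 55.6% for DA in M1 WT, 32.1 to 52.5% for DA-treated WT against DRD5-/- in M1, 38.2 to 63.9% for the M1 difference of DA effects, 83.8 to 69.8% for DA in M2 DRD5-/- and 24.8 to 40.1% for untreated DRD5-/- against WT in M2. The cause was not tested.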
